A study of Zea mays with 11 samples.

Results

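The endosperm of a maize grain starts to store protein and starch as cell division in it slows. This comparison sets isolated endosperm at 10 and 11 days after pollination (DAP) against isolated endosperm at 7 and 9 DAP, the days around the start of grain filling. It uses 4 of the 11 libraries of the series. All come from the inbred line Mo17, from field-grown ears that were selfed on a single day, dissected by hand and sequenced as polyadenylated RNA. The other 7 libraries are endosperm at 13, 15, 20 and 25 DAP, whole kernels at 3 and 5 DAP, and ear leaf at 13 DAP. Each stage has 1 library, and the labels do not say how many ears or plants went into it.

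Zeins are the storage proteins of maize endosperm. They are made on the rough endoplasmic reticulum (ER) and packed into protein bodies, and their genes are switched on by endosperm activators such as Opaque2 and the prolamin-box binding factor. Starch is built in amyloplasts from ADP-glucose, which is made from the products of sucrose cleavage and carried in by the Brittle1 transporter. Starch synthases lengthen the glucan chains, branching enzymes add branches, and debranching enzymes trim them. The same tissue holds other cell types at its margins: transfer cells at the base, the embryo-surrounding region, and the aleurone.

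Levels are FPKM as deposited, a unit that divides sequenced fragments by gene length and library size. A gene was tested where its mean over the 4 libraries was at least 1 FPKM, which left 15620 of 34145 genes. The difference of a gene is its mean log2(FPKM + 1) at 10 and 11 DAP minus that at 7 and 9 DAP. On this scale 1 is a 2-fold change, and the change of low genes is understated. Below, a gene rose or fell only where both later libraries lay on the same side of both earlier ones and the difference was at least 1 in size. An exact permutation test of a single gene cannot pass a threshold here, since the smallest two-sided p it allows with 2 against 2 libraries is 0.333. The 2 days of a side are different stages and not replicates, so the spread between plants of a stage is unknown.

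By this rule 659 genes rose (4.22% of those tested) and 521 fell (3.34%). Without the minimum size, 3869 genes were higher in both later libraries (24.8%) and 4238 were lower in both (27.1%). With a stricter rule, in which even the nearest later and earlier values were 2-fold apart, 260 genes were higher (1.66%) and 132 lower (0.845%). The large changes were mostly rises: 70 genes rose at least 8-fold and 2 fell as far, and 13 rose at least 64-fold, where 0 fell as far. The median difference of all tested genes was 0.0029. Of the genes that rose 197 had an earlier mean under 1 FPKM, and of those that fell 81 had a later mean under 1 FPKM, so these passed the filter through 1 side and had to differ. In bulk RNA, fewer cells of a type and less RNA per cell cannot be told apart in any of these changes. At the edge of the minimum size stood GRMZM2G119782 (Arabidopsis match AtMAPR2), just inside, with 21.1 and 19.6 FPKM at 10 and 11 DAP, against 14.1 and 6.51 FPKM at 7 and 9 DAP. Just outside among the falls was GRMZM2G118286 (match LACS9) at -0.99.

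The 9 DAP library stood apart from its neighbours. It listed 9853 genes at 0, against 6323 to 7250 in the other 3 libraries, and 14333 genes reached 1 FPKM in it, against 15189 to 15836. From 7 to 9 DAP 165 genes were 2-fold higher and 1504 were 2-fold lower, and from 9 to 10 DAP 1348 were higher and 321 lower. Only 2.87% of genes were 2-fold apart between 11 and 10 DAP, against 10.7% between 10 and 9 DAP. The share was also 10.7% between 9 and 7 DAP, which is a longer interval. How deeply each was sequenced is unknown. Without the 9 DAP library 620 genes rose and 1105 fell, without 7 DAP 1351 rose and 467 fell, and without 10 DAP 873 rose and 841 fell. Of the 659 genes that rose, 323 (49.0%) kept the call whichever library was left out, as did 218 of the 521 that fell (41.8%). All 3 other scalings kept 597 of the rises and 493 of the falls.

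Some transcription factors of storage genes were among the genes that rose. The o2 gene, which encodes the bZIP activator Opaque2, had 45.9 and 90.8 FPKM at 10 and 11 DAP, against 0.28 and 5.93 FPKM at 7 and 9 DAP (difference 4.46). Both later values lay far above both earlier ones, and the level was already higher at 9 than at 7 DAP. The prolamin-box factor gene pbf1 (GRMZM2G146283) had 27.2 and 64.9 FPKM at 10 and 11 DAP, against 3.29 and 15.4 FPKM at 7 and 9 DAP (2.36). The NAC-domain gene nrp1 had 99.2 and 270.4 FPKM at 10 and 11 DAP, against 13.2 and 36.2 FPKM at 7 and 9 DAP (2.84). All 3 climbed at every step between neighbouring days, and without the 7 DAP library the pbf1 difference was 1.40. The aleurone regulator nkd2 rose as well, with 35.1 and 35.5 FPKM at 10 and 11 DAP, against 15.9 and 9.08 FPKM at 7 and 9 DAP (1.47). Its relative nkd1 had a difference of 0.85, with 83.0 and 102 FPKM at 10 and 11 DAP, against 51.7 and 49.6 FPKM at 7 and 9 DAP. The most abundant regulator was fl3, which encodes a PLATZ protein, at 1004 and 1763 FPKM at 10 and 11 DAP, against 1014 and 1840 FPKM at 7 and 9 DAP. Its later and earlier values overlapped almost completely. Of 13 tested regulators 4 rose and 0 fell, and the median difference of the list was 0.54. Those that did not meet the rule include ohp1 (0.22), ohp2 (0.005) and mads47 (-0.17), chosen after their values were seen. These were low, and the later and earlier values of each overlapped. A second identifier named pbf1, GRMZM2G146267, was flat at 5.28 and 5.49 FPKM at 10 and 11 DAP, against 3.64 and 5.60 FPKM at 7 and 9 DAP.

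The zein genes changed most. Summed over the 26 members of the list, zein transcripts held 3711 and 7486 FPKM at 10 and 11 DAP (1.31% and 2.55% of all listed FPKM), against 67.5 and 202 FPKM at 7 and 9 DAP (0.0230% and 0.0734%). The alpha zein gene z1A2_1 had 160.5 and 628 FPKM at 10 and 11 DAP, against 1.34 and 0.89 FPKM at 7 and 9 DAP (difference 7.24, the highest of the list). The alpha zein gene z1C1_4 had 74.5 and 511 FPKM at 10 and 11 DAP, against 0.99 FPKM at 7 DAP and listed at 0 at 9 DAP. For these alpha zeins the earlier libraries held next to nothing, and the level climbed again between 10 and 11 DAP. The fl2 gene, another alpha zein, had 12.2 and 102 FPKM at 10 and 11 DAP, against 0.10 and 0.09 FPKM at 7 and 9 DAP (5.08).

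Gamma and beta zeins form the shell of the protein body, and several of their genes were detected earlier. The gamma zein gene zp27 had 1529 and 2342 FPKM at 10 and 11 DAP, against 47.0 and 157 FPKM at 7 and 9 DAP (4.44). The gamma zein gene zp16 had 838 and 1331 FPKM at 10 and 11 DAP, against 6.27 and 27.4 FPKM at 7 and 9 DAP (6.20). Both of these grew more than 3-fold between 7 and 9 DAP, before the alpha zeins had moved. The beta zein gene zp15 was higher at 10 than at 11 DAP, with 484 and 357 FPKM, against 6.34 and 8.68 FPKM at 7 and 9 DAP (5.63). The gamma zein gene gz50 followed the alpha zeins, with 39.9 and 312 FPKM at 10 and 11 DAP, against 0.43 and 0.75 FPKM at 7 and 9 DAP (6.16). The delta zein gene dzs18, chosen after its values were seen, had 214.8 and 73.2 FPKM at 10 and 11 DAP, against 1.45 and 5.45 FPKM at 7 and 9 DAP (4.99). The beta and delta genes named here stood higher at 10 DAP, and the gamma and alpha genes named here at 11 DAP.

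The differences of the 22 zein genes tested ran between 2.52 and 7.24, with a median of 5.70. Of these genes 17 had a 7 and 9 DAP mean under 1 FPKM, so they passed the filter through the later libraries and had to differ. The 4 zein genes below the filter reached at most 0.34 FPKM. Zein genes, the alpha zeins above all, include near-identical copies. The split of reads among such members is uncertain, while their sum is less so. The unnamed identifiers AF546188.1_FG005 and AF546188.1_FG007 reached levels like those of the zeins. They are not on the zein list, so the zein sum given above leaves them out, and whether they are zein genes was not tested. AF546188.1_FG005 had 353 and 1144 FPKM at 10 and 11 DAP, against 3.38 and 3.88 FPKM at 7 and 9 DAP (7.11). AF546188.1_FG007 had 436 and 1508 FPKM at 10 and 11 DAP, against 4.74 and 6.52 FPKM at 7 and 9 DAP (6.95).

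**Figure D1:**
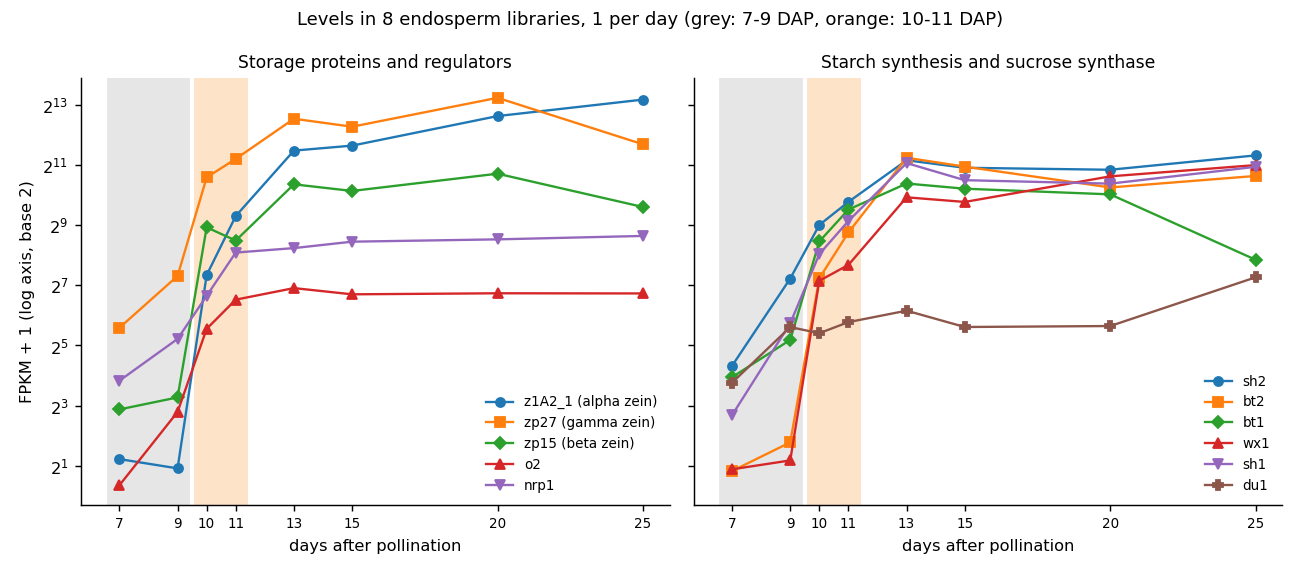
Level of each gene as FPKM + 1 on a log axis (base 2) against days after pollination in the 8 endosperm libraries, 1 library per day; grey marks 7 and 9 DAP and orange 10 and 11 DAP. The z1A2_1, bt2 and wx1 lines are low up to 9 DAP and step up at 10 DAP, while sh2, sh1, zp27 and o2 climb from 7 DAP on and du1 is nearly flat between 9 and 20 DAP.

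Starch genes rose in a graded order. The enzyme ADP-glucose pyrophosphorylase makes the glucose donor for starch, and its endosperm subunits did not start together. The large subunit gene sh2 had 511 and 870.2 FPKM at 10 and 11 DAP, against 19.0 and 148 FPKM at 7 and 9 DAP (difference 3.61, and 2.16 without the 7 DAP library). The small subunit gene bt2 had 149 and 430.0 FPKM at 10 and 11 DAP, against 0.78 and 2.44 FPKM at 7 and 9 DAP (6.68). At 9 DAP the sh2 transcript was thus already high while bt2 was still low. Another small subunit gene, agp2 (match ADG1), chosen after its values were seen, was present earlier. It had 54.7 and 67.9 FPKM at 10 and 11 DAP, against 16.9 and 31.1 FPKM at 7 and 9 DAP (1.37). The bt1 gene, which encodes the ADP-glucose transporter of the amyloplast, had 349 and 729 FPKM at 10 and 11 DAP, against 14.4 and 35.4 FPKM at 7 and 9 DAP (4.42). The waxy gene wx1, whose granule-bound starch synthase makes amylose, had 141 and 203 FPKM at 10 and 11 DAP, against 0.85 and 1.27 FPKM at 7 and 9 DAP (6.38). The bt2 and wx1 genes shared the pattern of the alpha zeins, with their step between 9 and 10 DAP.

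The enzymes that shape amylopectin rose less. The branching enzyme gene ae1 had 444 and 592 FPKM at 10 and 11 DAP, against 56.6 and 220.0 FPKM at 7 and 9 DAP (2.19, and 1.22 without 7 DAP). The other branching enzyme gene sbe1 (GRMZM2G088753) had 84.2 and 145 FPKM at 10 and 11 DAP, against 18.7 and 44.9 FPKM at 7 and 9 DAP (1.89). The plastid phosphorylase gene pho1 had 388 and 453 FPKM at 10 and 11 DAP, against 49.5 and 179 FPKM at 7 and 9 DAP (2.14, and 1.22 without 7 DAP). For ae1, sbe1 and pho1 the later values lay above the earlier ones, but the 9 DAP value lay well above the 7 DAP value too. The soluble starch synthase gene ss1 had 38.8 and 57.95 FPKM at 10 and 11 DAP, against 5.80 and 13.5 FPKM at 7 and 9 DAP (2.29). In contrast du1, which encodes a soluble starch synthase, had 41.4 and 53.8 FPKM at 10 and 11 DAP, against 12.6 and 47.9 FPKM at 7 and 9 DAP. Its 9 DAP value lay between the later ones, so it did not meet the rule. Without the 9 DAP library it did (1.83), and without 10 DAP as well (1.09). The debranching enzyme genes differed. The isoamylase match ATISA1 (GRMZM2G138060), chosen after its values were seen, rose. It had 101 and 159 FPKM at 10 and 11 DAP, against 25.1 and 54.2 FPKM at 7 and 9 DAP (1.75). The isoamylase-type genes iso2 and iso3, also chosen after their values were seen, were low and did not meet the rule (0.26 and 0.38). The pullulanase-type gene zpu1 was low on these days, at 1.36 and 2.41 FPKM at 10 and 11 DAP, against 0.97 and 1.05 FPKM at 7 and 9 DAP (0.50). It stood at 26.7 FPKM at 20 DAP and 41.0 FPKM at 25 DAP.

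Of 25 tested starch genes 14 rose and 0 fell, with a median difference of 1.37. The medians of the list were 0.83 for the step between 9 and 7 DAP, 0.80 for 10 and 9 DAP and 0.37 for 11 and 10 DAP. For the zeins the same medians were -0.05, 4.66 and 2.23. The members that did not rise include another granule-bound synthase match, GRMZM2G008263, chosen after its values were seen. It had 8.76 and 6.82 FPKM at 10 and 11 DAP, against 6.22 and 7.10 FPKM at 7 and 9 DAP, and 11.9 FPKM in leaf.

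**Figure D2:**
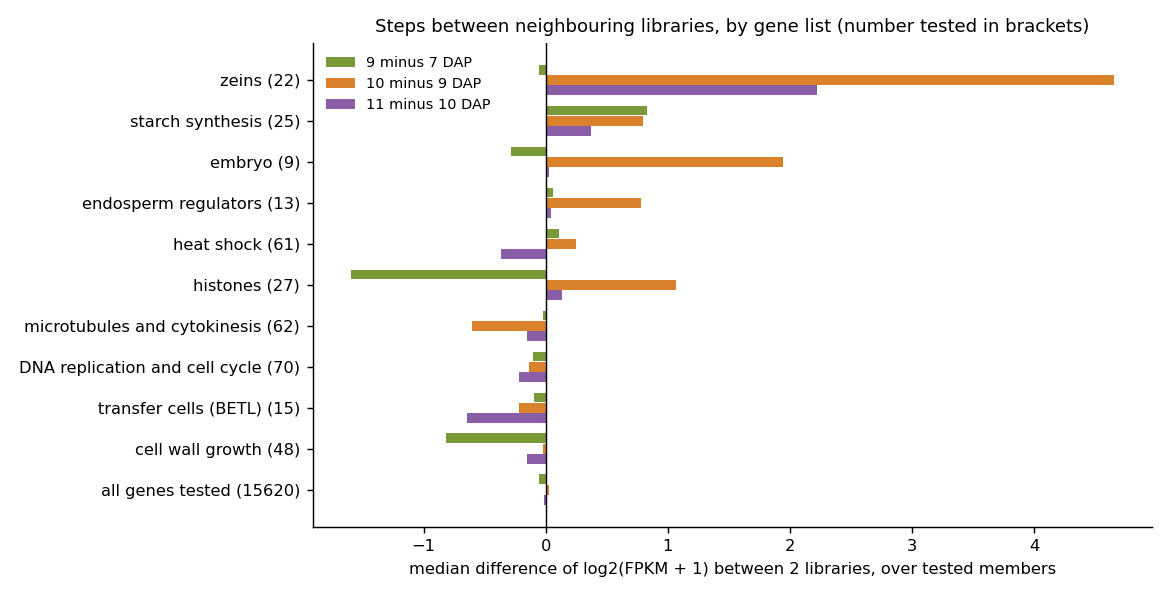
Median over the tested members of each gene list of the difference of log2(FPKM + 1) between neighbouring libraries, with the later day first in each difference; all genes tested are the bottom group. The zein median is near 0 for 9 minus 7 DAP and 4.66 for 10 minus 9 DAP, the starch medians are 0.83, 0.80 and 0.37 in day order, and the histone step is -1.60 and then 1.07. The 9 minus 7 DAP step spans a longer interval than the others.

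Sucrose synthases, which split incoming sucrose, rose together with the starch genes. The sh1 gene, which encodes the main endosperm sucrose synthase, had 261 and 560.4 FPKM at 10 and 11 DAP, against 5.43 and 52.3 FPKM at 7 and 9 DAP (4.37, and 2.85 without 7 DAP). Its relative sus1 had 172 and 197 FPKM at 10 and 11 DAP, against 14.6 and 74.6 FPKM at 7 and 9 DAP (2.43, and 1.29 without 7 DAP). The later levels of the pair differed: at 13 DAP sh1 stood at 2127 FPKM and sus1 at 22.1 FPKM. The sorbitol dehydrogenase gene sdh1 had 595 and 621 FPKM at 10 and 11 DAP, against 125 and 55.0 FPKM at 7 and 9 DAP (2.86). The cell wall invertase gene mn1 cleaves sucrose at the base of the endosperm. It had 24.1 and 13.9 FPKM at 10 and 11 DAP, against 13.3 and 9.17 FPKM at 7 and 9 DAP, with a difference of 0.68 and nearly touching values, and without the 11 DAP library it met the rule (1.06). Of 18 tested genes of sucrose cleavage and sugar supply 5 rose and 1 fell, with a median difference of 0.23. The sugar transporter match AtSWEET15 (GRMZM2G368827) moved the other way, with 3.71 and 1.21 FPKM at 10 and 11 DAP, against 22.9 and 9.25 FPKM at 7 and 9 DAP (-2.28). Of 31 tested sugar and amino acid transporters 1 rose and 4 fell, and the median difference was -0.04; 8 fell without the 9 DAP library and 2 without 7 DAP.

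Pyruvate orthophosphate dikinase, which interconverts pyruvate and phosphoenolpyruvate, rose steeply. Its gene ppdk2 had 856 and 1247 FPKM at 10 and 11 DAP, against 41.5 and 227 FPKM at 7 and 9 DAP (3.39, and 2.18 without 7 DAP). The pdk1 gene had 186 and 270.1 FPKM at 10 and 11 DAP, against 4.49 and 55.7 FPKM at 7 and 9 DAP (3.67, and 1.99 without 7 DAP). Both had begun to climb by 9 DAP. The abundant glycolytic genes named here did not meet the rule. The glyceraldehyde-3-phosphate dehydrogenase gene gpc3 had 1326 and 1330 FPKM at 10 and 11 DAP, against 842 and 813 FPKM at 7 and 9 DAP (0.68). The related gpc4 had 1683 and 2164 FPKM at 10 and 11 DAP, against 1789 and 1856 FPKM at 7 and 9 DAP, and these values overlapped. Of 34 tested glycolysis and pyruvate genes 3 rose and 2 fell, and the median difference was 0.32; without the 9 DAP library 6 rose, and without 7 or 11 DAP 1 fell. The falling ones were both matches to phosphofructokinase 3, chosen after their values were seen: GRMZM2G004932 had 6.25 and 2.81 FPKM at 10 and 11 DAP, against 17.7 and 12.9 FPKM at 7 and 9 DAP.

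Amino acid and nitrogen metabolism had 4 rises and 0 falls among 30 tested genes (median 0.31), and 7 rises without the 7 DAP library. The alanine aminotransferase match GRMZM5G828630 had 69.0 and 71.5 FPKM at 10 and 11 DAP, against 22.1 and 30.6 FPKM at 7 and 9 DAP (1.40). The rip1 gene, which encodes the ribosome-inactivating b-32 protein of endosperm, had 38.9 and 257 FPKM at 10 and 11 DAP, against 0.57 and 0.35 FPKM at 7 and 9 DAP (6.12). Like the alpha zeins, it had no rise between 7 and 9 DAP. The late steps also included the sulfur-deficiency match ATSDI1 (GRMZM2G123986). It had 3.32 and 73.6 FPKM at 10 and 11 DAP, against 2.45 and 0.86 FPKM at 7 and 9 DAP (2.83). Its level came up only at 11 DAP, and without that library the difference was 0.77, below the minimum, and without 10 DAP it was 4.88.

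Protein body and ER folding genes were mixed, with 6 rises and 2 falls among 34 tested members (median 0.04). The translocon subunit match SEC61 BETA (AC199315.4_FG001) had 184 and 232 FPKM at 10 and 11 DAP, against 94.5 and 45.2 FPKM at 7 and 9 DAP (1.64). The calreticulin gene crt2 had 403 and 308 FPKM at 10 and 11 DAP, against 868 and 820.2 FPKM at 7 and 9 DAP (-1.26). These are opposite moves of abundant ER genes, with no overlap in either. The main disulfide isomerase gene pdil1-1 had 1113 and 997 FPKM at 10 and 11 DAP, against 988 and 734 FPKM at 7 and 9 DAP (0.31). The chaperone gene bip1 had 180.2 and 98.5 FPKM at 10 and 11 DAP, against 131 and 85.5 FPKM at 7 and 9 DAP, and these values overlapped. The protein body genes fl1 (GRMZM2G094532) and o10, chosen after their values were seen, both rose from low levels. The fl1 gene had 9.38 and 28.5 FPKM at 10 and 11 DAP, against 4.21 and 2.45 FPKM at 7 and 9 DAP (2.05, and 1.29 without 11 DAP). The o10 gene had 10.4 and 20.2 FPKM at 10 and 11 DAP, against 4.43 and 7.90 FPKM at 7 and 9 DAP (1.16), but without 7 DAP (0.81) or 11 DAP (0.71) it did not meet the rule. One alpha zein gene, z1A1_6, is also on this list.

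**Figure D3:**
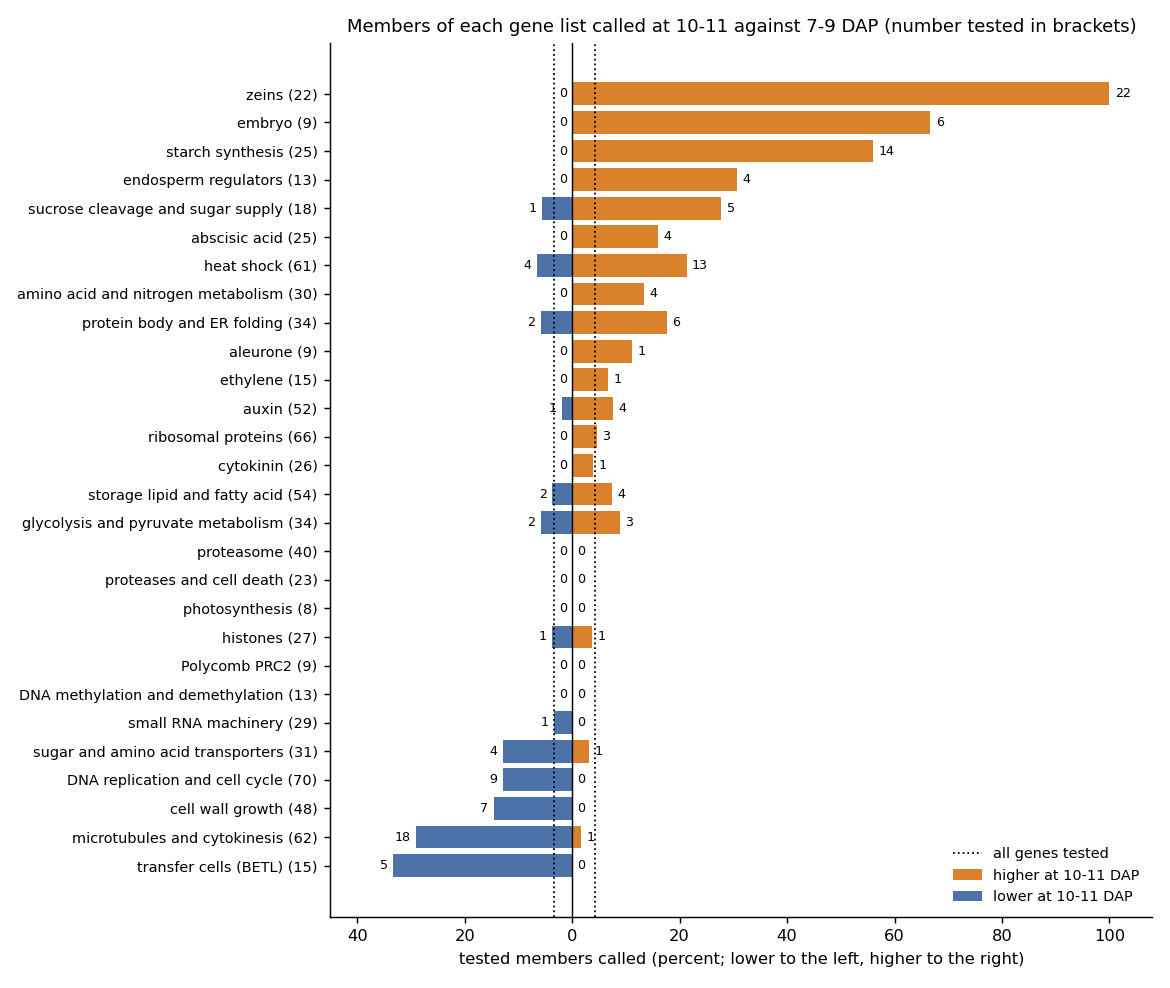
Percent of the tested members of each gene list that rose (orange, to the right) or fell (blue, to the left) at 10 and 11 DAP against 7 and 9 DAP, for lists with at least 8 tested members; the number beside a bar is the count of genes and dotted lines mark all genes tested (4.22% higher, 3.34% lower). Zeins, embryo, starch and regulators lead the rises, and transfer cells, microtubules and cell wall growth lead the falls.

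Genes of the endosperm margins and of other seed tissues bear on which cells the libraries held. The 73 photosynthesis genes summed to 25.5 and 28.7 FPKM at 10 and 11 DAP, against 35.1 and 27.8 FPKM at 7 and 9 DAP, where leaf had 8812 FPKM. Of the 8 tested, 0 rose and 0 fell, and 1 rose without the 7 DAP library. Transfer cell genes were abundant in all 4 libraries. The betl1 gene, which encodes a small secreted protein of the basal transfer layer, had 97.8 and 102 FPKM at 10 and 11 DAP, against 92.5 and 93.3 FPKM at 7 and 9 DAP (difference 0.10). The betl10 gene had 569 and 405 FPKM at 10 and 11 DAP, against 522 and 549 FPKM at 7 and 9 DAP, and overlapped. The betl2 gene was lower only at 11 DAP, with 270.8 and 145 FPKM at 10 and 11 DAP, against 317 and 273 FPKM at 7 and 9 DAP (-0.57, and -1.02 without 10 DAP).

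Other transfer cell genes fell. Both identifiers named meg2, of the family of the maternally expressed gene meg1, fell. GRMZM2G094054 had 121 and 90.4 FPKM at 10 and 11 DAP, against 282 and 286 FPKM at 7 and 9 DAP (-1.43). The meg1 gene itself had 69.4 and 41.5 FPKM at 10 and 11 DAP, against 86.5 and 80.7 FPKM at 7 and 9 DAP (-0.63). Of 15 tested transfer cell genes 0 rose and 5 fell, with a median difference of -0.57. Without the 11 DAP library 2 fell, and the second meg2 identifier, GRMZM2G088896, was one of those lost (-0.89). The other falls, chosen after their values were seen, were bap-3a, bap-3b and bap1-b, which encode antimicrobial proteins of the basal layer. Without 11 DAP bap-3b (-0.72) and bap1-b (-0.94) did not meet the rule, nor did bap1-b without 9 DAP (-0.87). The lowest of these, bap-3a, had 8.27 and 3.90 FPKM at 10 and 11 DAP, against 24.0 and 18.7 FPKM at 7 and 9 DAP (-1.72).

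Genes of the embryo-surrounding region were highest at 7 DAP. The esr1 gene, which encodes a small secreted protein of that region, had 11.5 and 5.28 FPKM at 10 and 11 DAP, against 99.2 and 25.0 FPKM at 7 and 9 DAP (-2.53, and -1.55 without 7 DAP). The esr3 gene (GRMZM2G140302) had 8.17 and 2.74 FPKM at 10 and 11 DAP, against 35.8 and 8.48 FPKM at 7 and 9 DAP (-1.67). A further identifier, GRMZM2G315601, which the gene table names both ESR1 and esr2, had 14.3 and 7.06 FPKM at 10 and 11 DAP, against 49.7 and 14.5 FPKM at 7 and 9 DAP (-1.34). For esr3 and GRMZM2G315601 the 9 and 10 DAP values were almost equal. Without the 7 DAP library their differences were -0.69 and -0.48, which no longer met the rule, and without 9 DAP they were -2.65 and -2.19. Without 11 DAP esr3 had -1.03, and GRMZM2G315601 did not meet the rule (-0.88). The esr6 gene overlapped, with 18.9 and 10.1 FPKM at 10 and 11 DAP, against 112 and 8.50 FPKM at 7 and 9 DAP, and met the rule without 9 DAP (-2.92). In each of the 4 genes the 7 DAP value was the highest of the 4 days. Their sum was 52.8 and 25.2 FPKM at 10 and 11 DAP, against 297 and 56.5 FPKM at 7 and 9 DAP.

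Storage genes on the embryo list rose, and some of them are also active in endosperm. The legumin-type gene leg1 had 436 and 834 FPKM at 10 and 11 DAP, against 83.0 and 152 FPKM at 7 and 9 DAP (2.41). The oil body gene ole1 had 121 and 109 FPKM at 10 and 11 DAP, against 19.1 and 30.8 FPKM at 7 and 9 DAP (2.20). A second oleosin gene, ole17, had 23.9 and 34.0 FPKM at 10 and 11 DAP, against 0.64 and 2.26 FPKM at 7 and 9 DAP (3.67), and the globulin gene glb1 had 12.2 and 28.9 FPKM at 10 and 11 DAP, against 4.01 and 0.64 FPKM at 7 and 9 DAP (2.79). Of 9 tested members 6 rose and 0 fell (median 2.20). The summed level of all 17 members was 634 and 1050 FPKM at 10 and 11 DAP, against 135 and 199 FPKM at 7 and 9 DAP. Defining embryo genes were at mixed levels. The match L1L (GRMZM2G011789), a relative of LEAFY COTYLEDON1, had 0.27 and 0.05 FPKM at 10 and 11 DAP, against 0.46 and 0.24 FPKM at 7 and 9 DAP. The WOX5 match GRMZM2G116063 was listed at 0 at 10 and 11 DAP, against 0.04 FPKM at 7 DAP and 0 at 9 DAP. Higher levels were found for the LEC2 match GRMZM2G405699, chosen after its values were seen, with 7.82 and 13.1 FPKM at 10 and 11 DAP, against 11.5 and 9.27 FPKM at 7 and 9 DAP. The vp1 gene, a seed regulator of embryo and aleurone, had 4.77 and 3.37 FPKM at 10 and 11 DAP, against 3.47 and 1.68 FPKM at 7 and 9 DAP. Both overlapped. The wox2a gene had 5.25 and 5.36 FPKM at 10 and 11 DAP, against 5.31 and 1.06 FPKM at 7 and 9 DAP, and met the rule without 7 DAP (1.61). The part of embryo cells in these rises was not tested. Of 9 tested aleurone genes 1 rose, the nkd2 gene given above. The lipid transfer gene ltp3 was far higher in whole kernels (351 and 456 FPKM at 3 and 5 DAP). It had 4.79 and 2.03 FPKM at 10 and 11 DAP, against 46.4 and 0.52 FPKM at 7 and 9 DAP, so its direction turned with the library left out (1.46 without 7 DAP and -3.50 without 9 DAP).

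Microtubule and cytokinesis genes held 18 falls and 1 rise among 62 tested members, with a median difference of -0.63. The spindle assembly factor match AtTPX2 (GRMZM2G325783) had 10.7 and 4.97 FPKM at 10 and 11 DAP, against 41.3 and 31.7 FPKM at 7 and 9 DAP (-2.16). A second TPX2 match, GRMZM2G154904, had 5.60 and 3.07 FPKM at 10 and 11 DAP, against 21.2 and 17.2 FPKM at 7 and 9 DAP (-1.96). The kinesin gene kin2, a match to NACK1, which builds the cell plate in Arabidopsis, had 9.09 and 5.46 FPKM at 10 and 11 DAP, against 34.9 and 28.4 FPKM at 7 and 9 DAP (-2.01). In all 3 the 7 and 9 DAP libraries were close to each other, and the drop came between 9 and 10 DAP. The GIG1 match GRMZM2G089517, in Arabidopsis an inhibitor of the anaphase-promoting complex, had 5.92 and 2.55 FPKM at 10 and 11 DAP, against 22.1 and 18.8 FPKM at 7 and 9 DAP (-2.11). Tubulin genes were divided. The abundant tua1, tua4 and the TUB8 match GRMZM2G043822 were not among those that fell. Others did fall, among them tub5 and tua5, chosen after their values were seen. The tub5 gene had 36.5 and 26.8 FPKM at 10 and 11 DAP, against 114 and 86.0 FPKM at 7 and 9 DAP (-1.64), and tua5 had a difference of -1.08. The 1 rise of the list was also a tubulin gene, the TUA5 match GRMZM2G051782 (2.47). The tua4 gene had 168 and 92.8 FPKM at 10 and 11 DAP, against 211 and 177 FPKM at 7 and 9 DAP (-0.63, and -1.05 without 10 DAP).

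In the wider list of DNA replication and cell cycle genes 0 of 70 rose and 9 fell (median -0.36). Without the 10 DAP library 17 fell and without 11 DAP 6 fell. The tested members include matches to a chloroplast ribosome recycling factor and to cycling DOF factor 2, which entered by spelling. None of these met the rule, but they count in the total and the median. The falling members, chosen after their values were seen, were 5 cyclin genes and 2 Aurora 3 kinase matches, beside the replicative helicase genes mcm6 and the MCM3 match GRMZM2G160664. The mcm6 call was lost without 9 DAP (-0.94) or 11 DAP (-0.98), and that of the MCM3 match without 9 DAP (-0.54). Among the cyclins, csh9 (match CYCB1;4) and the CYCB2;4 match GRMZM2G061287 did not meet the rule without 11 DAP, nor did csh9 without 7 DAP. The cyclin gene cyc3 (match CYCB2;4) had 11.0 and 6.47 FPKM at 10 and 11 DAP, against 32.2 and 28.0 FPKM at 7 and 9 DAP (-1.71). A further Aurora 3 match, GRMZM2G174638, did not meet the rule (-0.41), nor did the CDKB2;1 match GRMZM2G068193 (-0.72); these matches were picked after their values were seen. The replication genes named by level did not meet it either. The clamp gene pcna2 had 27.7 and 29.1 FPKM at 10 and 11 DAP, against 42.6 and 47.9 FPKM at 7 and 9 DAP (-0.65), and the MCM4 match GRMZM2G066101 had 22.6 and 29.9 FPKM at 10 and 11 DAP, against 26.9 and 39.2 FPKM at 7 and 9 DAP (-0.31). The histone genes on the list followed the 9 DAP library. Those tested were all matches to H2A, H2B or H1, and other histone classes were not among them. The list summed to 2086 and 2572 FPKM at 10 and 11 DAP, against 3306 and 1089 FPKM at 7 and 9 DAP, and of 27 tested 1 rose and 1 fell. Without the 7 DAP library 14 rose, and without 9 DAP 6 fell. The H2A gene his2a1 had 282 and 372 FPKM at 10 and 11 DAP, against 234 and 127 FPKM at 7 and 9 DAP (0.90), and it met the rule without 7 DAP (1.34) and also without 10 DAP.

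Beta-expansins loosen grass cell walls, and a pair of them had the largest falls of all tested genes. The expansin B4 match GRMZM2G121308 had 2.99 FPKM at 10 DAP and was listed at 0 at 11 DAP, against 350 and 25.4 FPKM at 7 and 9 DAP (-5.59, and -3.73 without 7 DAP). The expansin B2 match GRMZM2G118873 had 1.34 FPKM at 10 DAP and was listed at 0 at 11 DAP, against 189 and 3.45 FPKM at 7 and 9 DAP (-4.25, with -1.54 without 7 DAP and -6.96 without 9 DAP). After them came the unnamed GRMZM2G145466, with 9.06 and 3.80 FPKM at 10 and 11 DAP, against 135 and 21.4 FPKM at 7 and 9 DAP (-2.99, and -1.69 without 7 DAP). The related expansin gene expb6 (GRMZM2G176595) had 2.54 and 0.51 FPKM at 10 and 11 DAP, against 46.6 and 4.39 FPKM at 7 and 9 DAP (-2.79, with -1.22 without 7 DAP and -4.36 without 9 DAP). In all 3 expansin genes the largest of the steps was that between 7 and 9 DAP, and the level was lower again at each later day. The first of these matches was higher still in whole kernels, at 802 and 1020 FPKM at 3 and 5 DAP, and the B2 match had 422 and 528 FPKM there. Kernels include maternal tissue, and its part in the 7 DAP endosperm library was not tested. Another expansin B4 match, GRMZM2G026956, had 74.1 and 63.7 FPKM at 10 and 11 DAP, against 166 and 66.5 FPKM at 7 and 9 DAP, and 0.41 FPKM in the 3 DAP kernel. It met the rule without 9 DAP (-1.26). Of 48 tested wall genes 0 rose and 7 fell (median -0.35), and 16 fell without the 9 DAP library. The polygalacturonase inhibitor match ATPGIP1 (GRMZM2G099295) had 2.13 and 0.91 FPKM at 10 and 11 DAP, against 33.9 and 3.15 FPKM at 7 and 9 DAP (-2.30), but the difference was -0.76 without 7 DAP and -3.84 without 9 DAP.

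**Figure D4:**
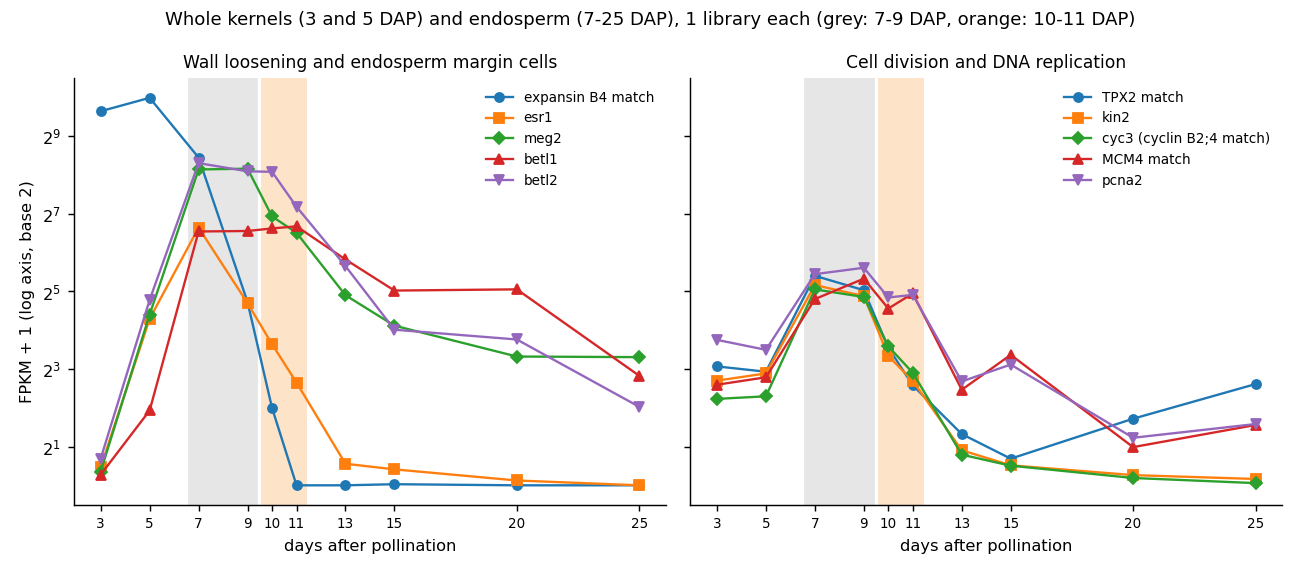
Level of each gene as FPKM + 1 on a log axis (base 2) against days after pollination in whole kernels (3 and 5 DAP) and endosperm (7 to 25 DAP), 1 library per day; grey marks 7 and 9 DAP and orange 10 and 11 DAP. The expansin line falls from 5 DAP on, and the TPX2, kin2 and cyc3 lines drop at 10 DAP. The betl1 line is low in kernels and level between 7 and 11 DAP. The pcna2 and MCM4 lines are lower at 10 than at 9 DAP and drop further after 11 DAP.

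Hormone genes are set here against the 4.22% of all tested genes that rose and the 3.34% that fell. The auxin synthesis gene tar3 (Arabidopsis match TAR2) had 62.0 and 116 FPKM at 10 and 11 DAP, against 2.15 and 6.07 FPKM at 7 and 9 DAP (4.19). The more abundant TAR2 match GRMZM2G127160 had 259 and 203 FPKM at 10 and 11 DAP, against 117 and 152 FPKM at 7 and 9 DAP (0.78). Both were higher in each later library than in each earlier one. Of 52 tested auxin genes 4 rose and 1 fell, and without the 9 DAP library 9 fell. Without 11 DAP 2 rose. Of 25 tested abscisic acid genes 4 rose and 0 fell, of which 3 are matches to receptors of the PYR1-like family, chosen after their values were seen. Without 7 DAP 7 rose, and without 9 DAP 2 did. The ABF3 match GRMZM2G033413, a bZIP factor of that pathway, had 19.2 and 29.8 FPKM at 10 and 11 DAP, against 11.5 and 5.37 FPKM at 7 and 9 DAP (1.48). Without the 9 DAP library its difference was 0.99, just under the minimum. The ethylene response factor match AtERF71 (GRMZM2G050851) had 15.6 and 24.2 FPKM at 10 and 11 DAP, against 3.07 and 5.04 FPKM at 7 and 9 DAP (2.04), the 1 rise among 15 tested ethylene genes (3 without 7 DAP). Of 26 tested cytokinin genes 1 rose, and 0 without 9 or 10 DAP.

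Heat shock genes moved in both directions. Of 61 tested members 13 rose and 4 fell (median 0.34), and 11 of the members passed the filter with an earlier mean under 1 FPKM. Without the 10 DAP library 10 rose and 8 fell, and without 11 DAP 24 rose and 2 fell. Small heat shock proteins and disaggregases protect unfolded proteins under stress. The small heat shock match HSP18.2 (AC208204.3_FG006) had 496 and 125 FPKM at 10 and 11 DAP, against 45.7 and 5.54 FPKM at 7 and 9 DAP (3.84, and 2.42 without 9 DAP). The hsp101 gene, chosen after its values were seen, had 115 and 12.9 FPKM at 10 and 11 DAP, against 6.78 and 4.66 FPKM at 7 and 9 DAP (2.60, with 1.06 without 10 DAP and 4.13 without 11 DAP). The hsp82 gene had 112 and 3.61 FPKM at 10 and 11 DAP, against 1.07 and 0.68 FPKM at 7 and 9 DAP (3.61, with 1.31 without 10 DAP and 5.92 without 11 DAP). In all 3 the 10 DAP value was the highest of the 4 days, and the 11 DAP value lay between it and the 7 DAP value. The hsp18c gene met the rule only without 7 or 11 DAP. It had 93.0 and 1.98 FPKM at 10 and 11 DAP, against 4.54 FPKM at 7 DAP and listed at 0 at 9 DAP. The 10 DAP value again stood far above the others.

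The members that fell include abundant chaperones. The match AtHsp90.4 (GRMZM2G112165) had 406 and 267 FPKM at 10 and 11 DAP, against 632 and 979 FPKM at 7 and 9 DAP (-1.25). Without 9 DAP its difference was -0.94 and without 11 DAP -0.95, so either omission ended the call. The hsp90-2 gene had 433 and 376 FPKM at 10 and 11 DAP, against 553 and 752 FPKM at 7 and 9 DAP (-0.67), and hsp70-4 had 897 and 828 FPKM at 10 and 11 DAP, against 1269 and 1167 FPKM at 7 and 9 DAP (-0.50). Neither overlapped, and neither met the minimum size. Other abundant members differed from these: the hsp70 gene GRMZM2G310431, chosen after its values were seen, had 640 and 146 FPKM at 10 and 11 DAP, against 98.2 and 85.8 FPKM at 7 and 9 DAP (1.73, with 0.67 without 10 DAP, which ended the call, and 2.79 without 11 DAP). A further gene with a spike at 10 DAP was the unnamed GRMZM2G082799. It had 140.3 and 0.27 FPKM at 10 and 11 DAP, against 0.26 and 0.08 FPKM at 7 and 9 DAP, and its call rests on the 10 DAP library (0.12 without it, and 6.92 without 11 DAP).

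**Figure D5:**
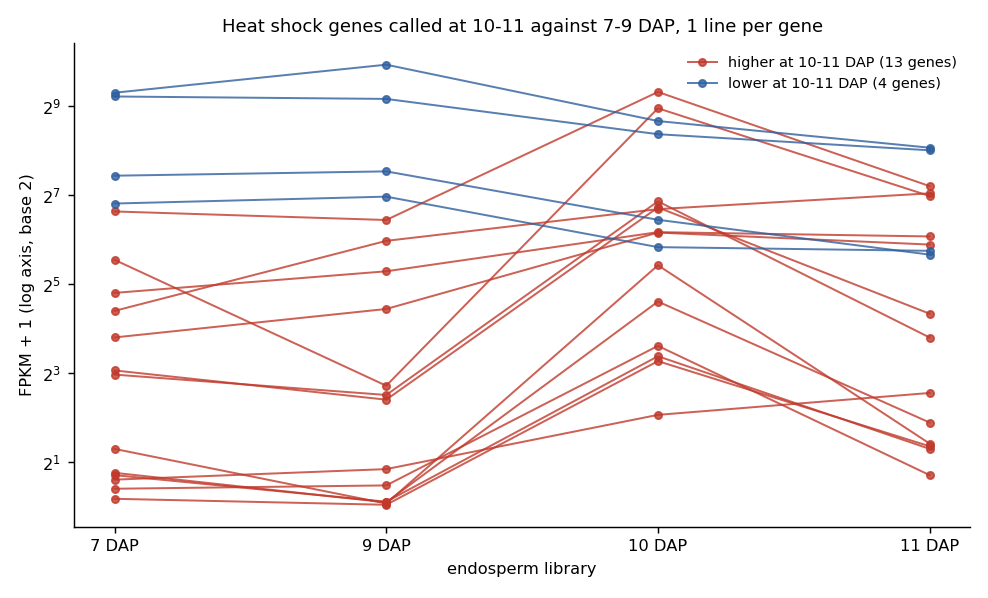
Level of the 17 heat shock genes that rose (red, 13 genes) or fell (blue, 4 genes), as FPKM + 1 on a log axis (base 2), in the 7, 9, 10 and 11 DAP endosperm libraries; each line is 1 gene. Most red lines peak at 10 DAP and are lower again at 11 DAP, while the blue lines are lower at 10 and 11 DAP than at 7 and 9 DAP.

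Several housekeeping and chromatin lists held few called genes, where 4.22% of all tested genes rose and 3.34% fell. By the rule, 0 genes rose or fell among 40 tested proteasome, 23 protease and cell death, 13 DNA methylation and 9 Polycomb PRC2 genes. At any size 11 proteasome genes were lower in both later libraries and 6 higher, where 27.1% and 24.8% of all tested genes were. The matches PAA1 and PAA2 (-0.90 and -0.89) met the rule without 9 DAP (-1.02 and -1.04). Without 7 or 10 DAP 1 proteasome gene rose. Of the protease genes 1 fell without 9 DAP and 1 rose without 10 DAP. The endosperm PRC2 gene fie1 had 47.3 and 47.1 FPKM at 10 and 11 DAP, against 53.2 and 69.2 FPKM at 7 and 9 DAP (-0.36). The chromomethylase gene met2 had 14.1 and 16.2 FPKM at 10 and 11 DAP, against 26.8 and 27.6 FPKM at 7 and 9 DAP (-0.80), with no overlap but under the minimum size. Of 66 tested ribosomal protein genes 3 rose and 0 fell (median 0.0085), and 0 rose without 11 DAP and 6 without 7 DAP. The 3, chosen after their values were seen, were the RPL9, PSRP3/1 and PRPL11 matches. They had 97.5, 53.6 and 32.4 FPKM in leaf, and the last 2 are described as plastid proteins. Of 29 small RNA genes 0 rose and 1 fell (4 without 7 or 10 DAP). Of 54 storage lipid and fatty acid genes 4 rose and 2 fell (7 rose without 7 DAP, and 4 fell without 9 or 10 DAP). Of the rises 3 were the oleosins shared with the embryo list. Of 6 tested defence genes 1 rose and 1 fell, the fall being the glucanase match BG1 (GRMZM2G335111). It had 3.13 and 1.05 FPKM at 10 and 11 DAP, against 19.0 and 5.24 FPKM at 7 and 9 DAP (-1.94, and -1.10 without 7 DAP).

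The step between 9 and 10 DAP was the largest for most of the called genes, 536 of the 659 that rose (81.3%) and 336 of the 521 that fell (64.5%). The rule favours that step, since it asks for a gap there. Only 209 of the genes that rose were higher at each of the 3 steps (31.7%), whereas 358 of the genes that fell were lower at each (68.7%). A 2-fold move between 7 and 9 DAP in the same direction was found for 38 genes that rose and 116 that fell. Over all tested genes that step leaned downward too, with 165 genes 2-fold higher and 1504 2-fold lower at 9 DAP. The share of all tested genes that moved 1 way at every step is not given here, so these contrasts cannot be set apart from the 9 DAP library.

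The later stages were not used by the rule. At 13 DAP 72.8% of the genes that rose were at least 2-fold above their 7 and 9 DAP mean, where 7.38% of all tested genes were. At 25 DAP the share was 45.8%, where it was 9.26% of all tested genes, and 13.8% had dropped 2-fold below that mean. The genes that fell stayed low. At 13 DAP 95.4% of them were at least 2-fold below their 7 and 9 DAP mean, where 19.1% of all tested genes were, and at 25 DAP 92.9%, where 35.1% of all tested genes were. No gene that fell was 2-fold above that mean at 13, 15, 20 or 25 DAP. These shares use the 7 and 9 DAP mean of the call itself, so they describe the persistence of the levels and are no test of the call. In leaf 36.7% of the genes that rose and 49.1% of those that fell were under 1 FPKM, against 18.5% of all tested genes. In the 5 DAP kernel the shares were 29.3% and 6.72%, against 6.27% of all tested genes. Leaf was the library with the highest value for 111 of the 659 genes that rose, against 2316 of the 15620 tested genes.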

How the data were processed

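Poly(A) RNA was sequenced from 11 libraries of maize Mo17, 1 per stage. The FPKM values were calculated by the authors and deposited to 2 decimals for 34145 genes. The tools cutadapt, TopHat2 and edgeR are listed, without version, per the submitters' processing notes. Build, annotation and counting: not given in the sources used here. Read counts were not recovered from the rounded values, so depth is unknown and a value of 0 means only that a gene is listed at 0.

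Gene names were looked up among RefSeq synonyms (Zm-B73-REFERENCE-NAM-5.0), and no coordinates were taken from there. This matched 18367 identifiers (53.8%). "Match" refers to the Arabidopsis symbol in the deposited table. Promoter sequences were not used here, so the planned motif search was not run.

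Values were compared as log2(FPKM + 1) in Python 3.11.15 (pandas 2.3.3), with tested genes averaging 1 FPKM or more across the 4 libraries. limma 3.58.1 in R 4.3.3, with the 2 days of each side as if replicates, was an alternative, checked on simulated data. Benjamini-Hochberg adjustment was used. Other alternatives were pseudocounts, filters, scalings, size rules and each library left out.

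The comparison, the 30 gene lists and the naming rule were chosen with earlier results of these data known. The lists were matched by symbol and description, and 58 entries matched by chance of spelling were removed after the data were seen. A few such entries remain in the cell cycle list. Lists share some genes. Named genes were the 12 largest differences each way among called genes of at least 10 FPKM with a name (at most 2 of a family), the 4 highest members of each list, a fixed set of 28 symbols, the 6 widest gaps each way, the 4 largest steps each way between 7 and 9 DAP and between 10 and 11 DAP, and at most 2 unnamed identifiers each way. Not every gene of the rule is printed.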

Additional observations from a re-analysis of the deposited data

How the results depend on the processing

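The counts of 659 genes higher and 521 lower at 10-11 DAP moved under several alternatives, limma and the size rules among them. A pseudocount of 0.1 gave 1010 higher and 860 lower genes, and a pseudocount of 5 gave 281 and 184. A mean of at least 5 FPKM gave 401 higher genes. With no minimum size the counts were 3869 and 4238, with the nearest values at least 2-fold apart 260 and 132, and with means at least 4-fold apart 166 and 43. limma, with 2 residual degrees of freedom, called 4 genes higher and 0 lower at an adjusted p of at most 0.05 (1224 and 1490 at an unadjusted p under 0.05). These 4 were wx1, zp15, glb3 and the unnamed GRMZM2G436295. Leaving out each library in turn gave 620 to 1351 higher and 391 to 1105 lower genes. The 3 scalings and dropping the filter changed neither count by over 1.5 times.

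Of 73 called genes under the naming rule, 64 kept the call under 2 other pseudocounts, 3 scalings and each library left out, and 9 lost it in at least 1. No called gene changed direction. Of the genes without a call 4 met the rule in the opposite direction when a library was left out. Without 7 and without 9 DAP the differences were 1.45 and -1.25 for the CRF3 match GRMZM2G171569, 1.46 and -3.50 for ltp3, 1.14 and -1.82 for endo1, and 1.91 and -3.34 for the ATPRP4 match GRMZM2G114356. The cause was not tested. No paired analysis was possible because each stage has 1 library and the labels give no replicate numbers. Unknown depth limits what can be said of genes at a few FPKM or listed at 0.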

Other observations

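Some other genes stood out between neighbouring libraries. The glutathione transferase match GSTL2 (GRMZM2G162486) had 7.56 and 91.8 FPKM at 10 and 11 DAP, against 1.45 and 1.04 FPKM at 7 and 9 DAP, and 279 FPKM in leaf (difference 3.66, and 1.94 without 11 DAP). The proline-rich protein match ATPRP4 (GRMZM2G114356) had 3.96 and 3.96 FPKM at 10 and 11 DAP, against 49.3 and 0.32 FPKM at 7 and 9 DAP, and 100 and 136 FPKM in whole kernels at 3 and 5 DAP. The fasciclin-type gene endo1 had 79.98 and 72.8 FPKM at 10 and 11 DAP, against 272 and 34.0 FPKM at 7 and 9 DAP. For both of these the 9 DAP library held the lowest value of the 4. The histone H2A match GRMZM2G109448, chosen after its values were seen, had 48.3 and 3.31 FPKM at 10 and 11 DAP, against 0.91 and 0.27 FPKM at 7 and 9 DAP (3.23, with 1.47 without 10 DAP and 4.98 without 11 DAP). The globulin gene glb3, also chosen after its values were seen, had 101 and 123 FPKM at 10 and 11 DAP, against 2.87 and 3.32 FPKM at 7 and 9 DAP.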
